A study of Mus musculus with 42 samples.

Results

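The change in total gene expression between the 8-cell stage and the morula was described for 5484 genes of the 24083 listed for mouse embryos. The genes were chosen by level alone: the total of the maternal and paternal FPKM (fragments scaled to transcript length and library size) was at least 5 in one of the 2 stages and above 0 in both. Both groups were wild-type female embryos of the cross labelled C57BL/6N X PWK/PhJ, and the labels name no transgene, deletion or treatment in either. RNA from lysed embryos was taken up with oligo-dT primers and read by Smart-seq2, a full-length cDNA method for small inputs that does not keep the strand. The morula group held 3 samples and the 8-cell group 3 samples, and the authors merged each group into 1 column per allele. Spread between embryos could therefore not be computed, read depth was unknown, and no difference between the stages was tested. A total here is the sum of the values that the authors list for the maternal and the paternal allele, and the way reads were assigned to alleles is not given in the sources used here. Fragments that could not be given to an allele may be missing from it. Nor is the number of cells in a morula given. Control female morulae (3 samples) and control male morulae (4 samples) of the same cross, wild type and listed in a second table that was normalized separately, are given beside the results as further morula columns. A later reading uses female E3.5 inner cell mass (2 samples) and female E3.5 trophectoderm (3 samples), listed beside the 2 stages and likewise merged. The remaining 18542 genes were below 5 FPKM at both stages, and 57 were at 5 FPKM or more but listed at 0 in one of the columns.

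Between these stages the blastomeres compact: E-cadherin adhesion increases, each cell gains an apical and a basal side, and outer cells begin to separate from inner cells. In outer cells the Hippo kinases are inactive, so that the coactivator Yap binds the DNA-binding factor Tead4 and Cdx2 is expressed, while inner cells keep the pluripotency factors. Oocyte-made RNA has largely been replaced by embryonic transcripts by then, and the embryo moves from pyruvate towards glucose as a fuel.

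Promoter sequences of 4 genes are shown because they stand at opposite ends of the change: Nanog, a pluripotency factor gene with the highest ratio, the keratin pair Krt8 and Krt18, which lie on the same chromosome and were both higher in morulae, and Spic, an Ets-family factor gene that was among the lowest. Each run is 300 bases, 250 before and 50 after the first listed RefSeq start, in GRCm38.p6, a build other than the mm9 of the expression files. The positions are chr6:122707239-122707538 on the plus strand for Nanog, chr15:102004293-102004592 on the minus strand for Krt8, chr15:102027966-102028265 on the plus strand for Krt18 and chr10:88682974-88683273 on the minus strand for Spic. Capitals mark matches, on either strand, to ATGCAAA (octamer-like), GGGCGG (GC box), TATAAA (the TATA box) and GCCNNNGGC (AP-2).
Nanog: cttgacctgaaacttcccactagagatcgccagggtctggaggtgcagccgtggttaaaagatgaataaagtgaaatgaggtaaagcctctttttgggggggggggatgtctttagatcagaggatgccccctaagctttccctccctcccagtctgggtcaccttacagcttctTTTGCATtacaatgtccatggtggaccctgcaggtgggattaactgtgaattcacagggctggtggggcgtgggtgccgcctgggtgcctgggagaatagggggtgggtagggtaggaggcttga
Krt8: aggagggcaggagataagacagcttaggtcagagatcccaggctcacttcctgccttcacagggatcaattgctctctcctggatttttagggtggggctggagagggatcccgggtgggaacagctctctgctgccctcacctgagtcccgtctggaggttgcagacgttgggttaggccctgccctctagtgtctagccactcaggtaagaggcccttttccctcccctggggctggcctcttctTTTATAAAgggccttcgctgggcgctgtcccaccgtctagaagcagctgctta
Krt18: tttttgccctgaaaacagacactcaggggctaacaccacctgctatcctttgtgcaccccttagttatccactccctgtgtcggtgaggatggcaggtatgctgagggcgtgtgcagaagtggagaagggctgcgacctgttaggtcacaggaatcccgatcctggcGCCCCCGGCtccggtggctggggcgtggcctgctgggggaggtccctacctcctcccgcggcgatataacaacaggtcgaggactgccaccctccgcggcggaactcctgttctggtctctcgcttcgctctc
Spic: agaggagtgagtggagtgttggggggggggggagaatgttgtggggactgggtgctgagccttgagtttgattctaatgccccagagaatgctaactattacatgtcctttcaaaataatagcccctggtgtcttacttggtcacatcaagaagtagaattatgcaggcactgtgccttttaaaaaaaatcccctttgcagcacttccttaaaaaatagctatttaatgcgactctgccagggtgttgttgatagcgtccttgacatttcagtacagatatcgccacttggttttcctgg
The Nanog window held 1 octamer-like match on the minus strand, the Krt8 window 2 overlapping TATA matches, one on each strand, and the Krt18 window 1 AP-2 match. None of these letters was found in the Spic window. GC content was 54.3% for Nanog, 58.0% for Krt8, 61.3% for Krt18 and 45.0% for Spic. Over 27025 promoters of the same length, 4.59% held the octamer-like match, 35.9% the GC box, 14.2% the TATA match and 16.5% the AP-2 match. A promoter was matched for 4462 of the 5484 genes, and for 1411 of the 1717 that were at least 2-fold higher in morulae. The octamer-like match stood in 2.91% of the promoters of higher genes and 2.91% of those of all matched genes. The GC box match stood in 68.5% of the promoters of higher genes and 66.2% of those of all matched genes. The TATA match stood in 6.45% of the promoters of higher genes and 6.81% of those of all matched genes. The AP-2 match stood in 23.6% of the promoters of higher genes and 24.1% of those of all matched genes. These are counts of letters and say nothing of a factor.

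In total expression, far more genes were higher in morulae than lower. On log2(FPKM + 1), 1717 of 5484 genes (31.3%) were at least 2-fold higher, 336 (6.13%) were at least 2-fold lower, and 3431 lay between. The median log2 ratio was 0.49 (95% order-statistic interval over genes 0.45 to 0.52), and this offset is the level against which gene groups are read below. After subtracting it, 949 genes were higher and 882 lower, and with each column scaled to its upper quartile 1211 were higher and 739 lower. At 4-fold 396 genes were higher and 52 lower, at 8-fold 44 were higher and 6 lower, and at 16-fold 2 were higher and 1 lower. Genes low in one stage entered the set only through the other: 1210 genes were below 5 FPKM in 8-cell embryos, and 867 of them were among the 1717 higher genes, while 137 of the 336 lower genes were below 5 FPKM in morulae. For these the limit itself favoured the direction. Over the 4006 genes at 5 FPKM or more in both stages, 850 (21.2%) were higher and 199 (4.97%) lower, with a median of 0.27. Shares of gene lists below stand against 31.3% higher and 6.13% lower over all genes. The added 1 FPKM makes the ratio of genes at low levels smaller than that of their FPKM values. The summed FPKM was 399289 in the morula column and 360907 in the 8-cell column. Genes above 0 numbered 13166 in morulae and 10744 in 8-cell embryos, and the median FPKM of genes at 5 or more was 21.1 in morulae and 20.5 in 8-cell embryos. The 10 most abundant genes took 7.18% of the sum in morulae and 8.94% in 8-cell embryos. Since the values are relative to library size and come from whole embryos, fewer cells of a type and less RNA per cell cannot be told apart.

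**Figure D1:**
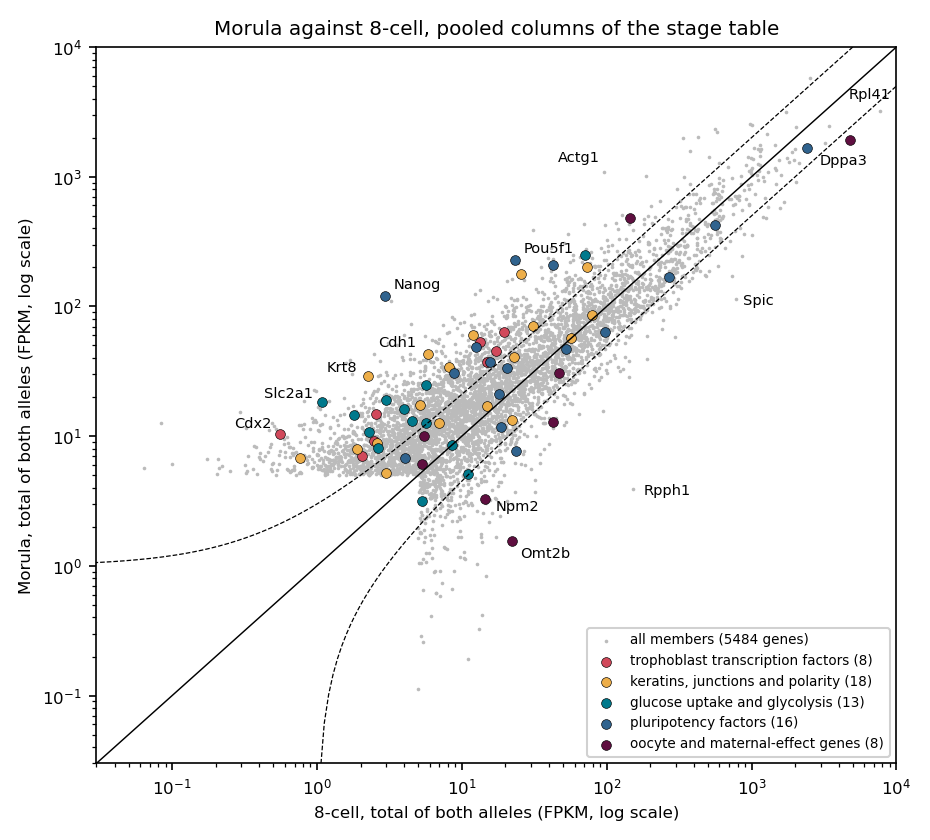
Total FPKM of each of the 5484 genes in the morula column (vertical, log scale) against the 8-cell column (horizontal, log scale); the solid line marks equal values and the dashed lines a 2-fold difference on FPKM + 1. All 8 trophoblast factors and 10 of 13 glycolysis genes lie above the upper dashed line, while Spic, Omt2b and Npm2 lie below the lower one.

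Separately made morula pools also differed from each other, which gives a scale for single genes. Control female morulae were at least 2-fold apart from the morulae of the stage table in 27.6% of 5727 genes, 9.41% higher and 18.2% lower. For control male morulae the figure was 30.0% of 5879 genes. Control female and control male morulae, which stand in the same table, were 2-fold apart in 5.38% of 5541 genes, 2.58% higher and 2.8% lower in control female morulae. Against the 8-cell column, 25.8% of 5306 genes were higher in control female morulae and 14.0% lower; for control male morulae the figures were 29.8% and 14.4% of 5552. These comparisons share the 8-cell column, and levels set across the 2 tables depend on their separate normalization.

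The ratio moved with base composition and length of the transcript. The genes were put into 5 classes of equal size. In the class with the lowest transcript GC (33.9% to 44%), 11.3% were at least 2-fold higher in morulae and 10.2% lower, with a median log2 ratio of 0.03. In the class with the highest GC (55.3% to 70.7%), 52.5% were higher and 3.29% lower, with a median of 1.06. The shortest transcripts (up to 1502 bases) had a median of -0.10, and the 4 classes of longer transcripts had 0.52, 0.69, 0.84 and 0.61. Against the same 8-cell column, control female morulae had medians of -0.47 and 0.64 in the lowest and highest GC classes, and 0.10 and -0.11 in the shortest and longest. All 3 morula columns thus showed higher ratios at higher GC, while the low ratio of the shortest transcripts was largest with the stage-table morulae. Gene lists are therefore given with their median as deposited and, in addition, after subtracting the median of the genes in the same class of GC and of length (5468 genes with a transcript in GENCODE M21, total offset restored). The part of composition and length in any single gene's ratio was not tested.

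**Figure D2:**
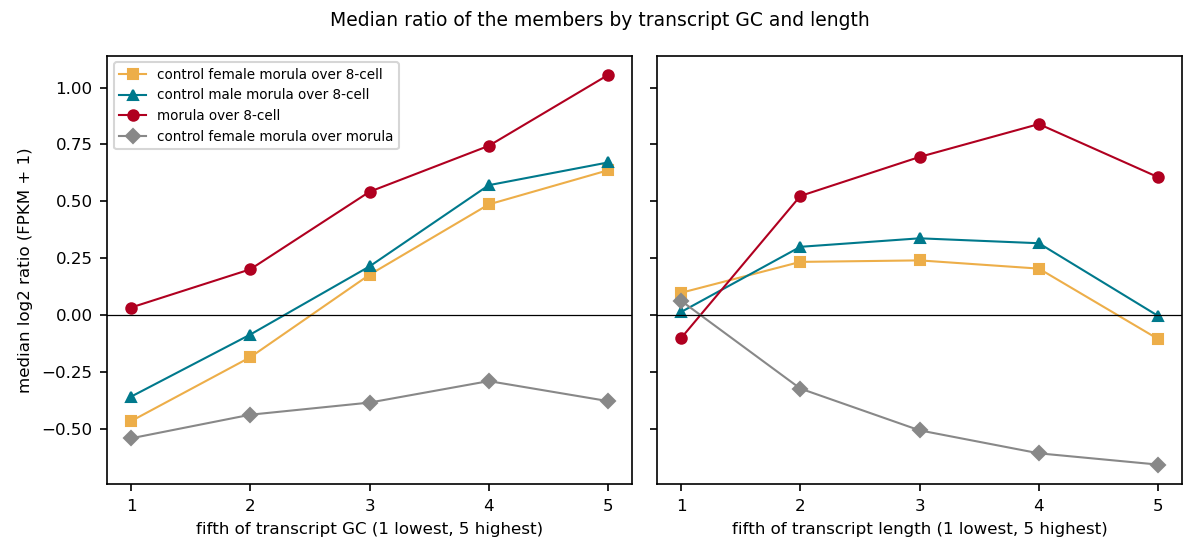
Median log2 ratio of the genes in each class of transcript GC (left) and transcript length (right), for 3 morula columns over the 8-cell column and for control female morulae over the morulae of the stage table. With GC the 3 morula columns run in parallel, with 1.06 in the highest and 0.03 in the lowest class for the stage-table morulae; with length the stage-table morulae start at -0.10 while control female morulae start at 0.10.

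The genes with the highest ratios included enzymes, membrane proteins and an actin-binding protein. Ass1, the argininosuccinate synthase of arginine synthesis, had 109.9 FPKM in morulae, against 3.27 FPKM in 8-cell embryos, with 208 FPKM in control female and 211 FPKM in control male morulae. Steap3, a metalloreductase of iron uptake, had 73.7 FPKM in morulae, against 4.44 FPKM in 8-cell embryos (log2 ratio 3.78). Mpdu1, which the cell needs to use dolichol-linked mannose in glycosylation, had 52 FPKM in morulae and 3.09 FPKM in 8-cell embryos. In each of these the 8-cell level was under 5 FPKM, and all 3 morula columns were above 20 FPKM. Bckdha, a subunit of the branched-chain keto acid dehydrogenase, had 22.7 FPKM in morulae and 0.951 FPKM in 8-cell embryos. St14, which encodes the membrane protease matriptase, had 12.6 FPKM in morulae and 0.0842 FPKM in 8-cell embryos, and Tinagl1, which encodes a matrix protein, 36.5 FPKM in morulae and 1.59 FPKM in 8-cell embryos. Lasp1, an actin-binding scaffold gene, had 60.5 FPKM in morulae, against 3.99 FPKM in 8-cell embryos (3.62), and was lower in the other morula columns, at 20.8 FPKM in control female and 17.4 FPKM in control male morulae. Akt1s1, which encodes a subunit of mTOR complex 1, had 15.4 FPKM in morulae and 0.294 FPKM in 8-cell embryos, and Clptm1 had 42.9 FPKM in morulae and 2.46 FPKM in 8-cell embryos. Eef2, the elongation factor that moves the ribosome along the message, was the most abundant of the 12 genes with the highest ratios, at 386 FPKM in morulae, against 30.8 FPKM in 8-cell embryos (3.60). Its level was similar in the other morula columns, with 336 FPKM in control female and 353 FPKM in control male morulae. Nppb, a natriuretic peptide gene, differed most among the morula columns: 18.1 FPKM in control female and 3.13 FPKM in control male morulae, 38.8 FPKM in stage-table morulae and 1.7 FPKM in 8-cell embryos. After centring on GC and length the ratios of the 11 genes named here ranged between 2.42 for Eef2 and 4.61 for Nppb.

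Among the genes with the lowest ratios were RNAs of the RNase P kind, an Ets factor and X-linked Xlr genes. Rpph1, the RNA component of RNase P, had 3.9 FPKM in morulae, against 152 FPKM in 8-cell embryos (-4.96), with 7.07 FPKM in control female and 4.93 FPKM in control male morulae. Rprl3, a related RNA, had 0.324 FPKM in morulae and 13.2 FPKM in 8-cell embryos. RNase P RNA is made by RNA polymerase III and lacks the poly(A) tail of a message, so oligo-dT capture measures it poorly. Spic had 50.8 FPKM from the maternal and 64.2 FPKM from the paternal allele in morulae, against 350.4 and 436 FPKM in 8-cell embryos. Both alleles were lower, and the control totals were 56.7 FPKM in control female and 132 FPKM in control male morulae, against the 8-cell total of 787 FPKM. Mixl1, a homeobox gene known from the primitive streak, had 1.68 FPKM in morulae, against 17.2 FPKM in 8-cell embryos. It was listed at 0 in control female morulae and had 0.12 FPKM in control male morulae. Xlr and Xlr4a had 0.84 and 1.04 FPKM in morulae, against 14.7 and 12.7 FPKM in 8-cell embryos. Copies of this family are near identical, and their reads can be split between them. Other low ratios depended on the morula column. Crls1, the cardiolipin synthase gene, had 3.74 FPKM in morulae and 31.8 FPKM in 8-cell embryos, but 22.4 FPKM in control female and 15.3 FPKM in control male morulae. Snhg9, a host gene of small nucleolar RNA, had 1.53 FPKM in morulae and 13.8 FPKM in 8-cell embryos, but 15.6 FPKM in control female morulae. Fabp4, a fatty acid carrier gene, had 4.59 FPKM in morulae and 31.8 FPKM in 8-cell embryos, and its 8-cell FPKM was wholly paternal.

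Pluripotency genes did not move as a block. Of 21 genes listed, 16 were in the set, with 6 at least 2-fold higher and 1 lower, and a median log2 ratio of 0.41 against 0.49 over all genes. Nanog and Klf4 entered only through the morula column, so the level limit favoured their direction. Over the 14 genes at 5 FPKM or more in both stages, 5 were higher and 1 lower, with a median of 0.02 against 0.27 over all genes. Nanog had 54.3 FPKM from the maternal and 67.1 FPKM from the paternal allele in morulae, against 0.947 and 2 FPKM in 8-cell embryos. Every morula column was high, with 170.01 FPKM in control female and 153 FPKM in control male morulae, and the log2 ratio of the stage-table totals was 4.95. Pou5f1 (Oct4) was listed with no paternal FPKM at either stage, so its total is that of the maternal allele alone, 229 FPKM in morulae, against 23.3 FPKM in 8-cell embryos (3.24). Klf5, a Krüppel-like factor gene active in both blastocyst lineages, had 208 FPKM in morulae, against 42.9 FPKM in 8-cell embryos (2.25). Its maternal and paternal alleles had 100.1 and 108 FPKM in morulae, against 24.4 and 18.5 FPKM in 8-cell embryos, so both were higher. Tfcp2l1, a factor of the naive state, had 48.7 FPKM in morulae and 12.6 FPKM in 8-cell embryos. The T-box gene Tbx3 had 30.5 FPKM in morulae and 8.79 FPKM in 8-cell embryos, and 8.44 FPKM in control female and 12.5 FPKM in control male morulae, so its direction depended on the morula column. Utf1, a chromatin-associated factor, had 37.4 FPKM in morulae and 15.8 FPKM in 8-cell embryos. These were the 6 genes past 2-fold. Klf17, known from cleavage-stage embryos, was the one lower gene, with 7.64 FPKM in morulae, against 23.6 FPKM in 8-cell embryos (-1.51). The members most abundant in 8-cell embryos had lower values in morulae, within 2-fold. Dppa5a, an RNA-binding protein gene, had 1657 FPKM in morulae and 2433 FPKM in 8-cell embryos, Dppa2 had 423 FPKM in morulae and 556 FPKM in 8-cell embryos, and its partner Dppa4 had 170.01 FPKM in morulae and 268 FPKM in 8-cell embryos. Sall4, a zinc finger partner of Oct4, had 63.7 FPKM in morulae and 97 FPKM in 8-cell embryos. Little difference was seen for the nuclear receptor gene Nr5a2 (21 FPKM in morulae, 18.2 FPKM in 8-cell embryos) and for Tdgf1, which encodes a Nodal coreceptor (46.8 FPKM in morulae, 52.5 FPKM in 8-cell embryos). Sox2 was below 5 FPKM at both stages, with 2.27 FPKM in morulae and 0.356 FPKM in 8-cell embryos.

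All 8 trophoblast transcription factors in the set were at least 2-fold higher in morulae, with a median of 1.60 (1.12 after centring on GC and length). The other 9 of 17 listed were below 5 FPKM at both stages. Cdx2, Eomes, Grhl2 and Id2 entered only through the morula column, so their direction was favoured by the level limit, and the 4 genes at 5 FPKM or more in both stages had a median of 1.50. Cdx2, which specifies trophectoderm, had 10.4 FPKM in morulae, against 0.552 FPKM in 8-cell embryos (2.88). The maternal and paternal alleles of Cdx2 had 6.5 and 3.89 FPKM in morulae, against 0.297 and 0.255 FPKM in 8-cell embryos, and the control totals were 8.19 FPKM in control female and 14.1 FPKM in control male morulae. Cdx2 was therefore below 1 FPKM in 8-cell embryos and above 8 FPKM in each morula column. Gata3, a zinc finger factor of trophoblast, had 53.2 FPKM in morulae, against 13.3 FPKM in 8-cell embryos (1.92). Id2, an inhibitor of basic helix-loop-helix factors, had 14.9 FPKM in morulae and 2.55 FPKM in 8-cell embryos (2.17). Eomes, a T-box factor of trophoblast stem cells, had 7.06 FPKM in morulae and 2.03 FPKM in 8-cell embryos, with 2.35 FPKM in control female and 4.42 FPKM in control male morulae. Tfap2c, an AP-2 factor gene, had 63.2 FPKM in morulae and 19.5 FPKM in 8-cell embryos, and Grhl2, a grainyhead-like factor gene, 9.16 FPKM in morulae and 2.48 FPKM in 8-cell embryos. Tead4, the Yap partner upstream of Cdx2, had 45.2 FPKM in morulae, against 17.2 FPKM in 8-cell embryos (1.35). The smallest ratio of the list was that of Hand1, a factor of trophoblast giant cells, with 37.4 FPKM in morulae and 14.9 FPKM in 8-cell embryos (1.27). Hand1 was also the one whose direction depended on the morula column, with 7.47 FPKM in control female and 2.85 FPKM in control male morulae, both below the 8-cell level. In 8-cell embryos the levels of Gata3, Hand1, Tead4 and Tfap2c lay between 13.3 and 19.5 FPKM, above those of Cdx2, Eomes, Grhl2 and Id2, which lay between 0.552 and 2.55 FPKM. Against 8-cell embryos, the list median was 0.94 with control female and 1.11 with control male morulae. The medians of all genes that passed the level limit with those columns, each a different set, were 0.21 and 0.33.

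In the Hippo pathway, 6 of 11 genes in the set (54.5%) were higher by at least 2-fold and 0 were lower, with a median of 1.02 (0.84 after centring on GC and length). The share over all genes was 31.3%, and 4 of the 6 higher genes entered only through the morula column. With control female morulae the list median was 0.46, and with control male morulae 0.21. The 5552 genes that passed the level limit with control male morulae, a different set, had a median of 0.33. Tead4 stands on this list too. Amotl2, an angiomotin-like gene whose protein tethers Yap and which is itself a Yap target, had 12.1 FPKM in morulae, against 1.04 FPKM in 8-cell embryos (2.68), and 4.97 FPKM in control female and 3.85 FPKM in control male morulae. Ctgf, a secreted target of Yap, had 8.22 FPKM in morulae and 0.642 FPKM in 8-cell embryos. Cyr61, a related target, had 13.3 FPKM in morulae and 6.86 FPKM in 8-cell embryos, which is within 2-fold. The coactivator gene Wwtr1 had 21.9 FPKM in morulae and 8 FPKM in 8-cell embryos, and Vgll4, whose protein competes with Yap for Tead proteins, 15.1 FPKM in morulae and 4.56 FPKM in 8-cell embryos. Both were higher, whereas Yap1 was below 5 FPKM at both stages (4.8 FPKM in morulae, 2.88 FPKM in 8-cell embryos). Among the kinases, Stk3 (Mst2) was higher, with 5.08 FPKM in morulae and 1.99 FPKM in 8-cell embryos, and its relative Stk4 (Mst1) had 10.04 FPKM in morulae and 7.54 FPKM in 8-cell embryos. The kinase cofactor genes Mob1a and Mob1b had 30.3 and 5.58 FPKM in morulae, against 20.03 and 7.67 FPKM in 8-cell embryos. Nf2 (Merlin), an upstream activator of the kinases, had 12.5 FPKM in morulae and 6.69 FPKM in 8-cell embryos. The kinase gene Lats1 was below 5 FPKM at both stages (0.807 FPKM in morulae, 2.19 FPKM in 8-cell embryos).

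Genes of epithelial structure were mostly higher in morulae. Of 28 keratin, junction and polarity genes listed, 18 were in the set, 11 of them at least 2-fold higher (61.1%, against 31.3% of all genes) and 0 lower, with a median of 1.47 (0.75 after centring on GC and length). Cdh1, the E-cadherin gene of compaction, had 43.3 FPKM in morulae, against 5.88 FPKM in 8-cell embryos (2.69), with 28.8 FPKM in control female and 35.7 FPKM in control male morulae. Ctnnb1 (beta-catenin), which binds its tail, had 34.1 FPKM in morulae and 8.13 FPKM in 8-cell embryos. Ctnna1 (alpha-catenin), the link to actin, had 71.3 FPKM in morulae and 31 FPKM in 8-cell embryos, and Ctnnd1 (p120-catenin) 17.3 FPKM in morulae and 5.15 FPKM in 8-cell embryos. The cadherin and its 3 catenin partners were thus all past 2-fold. Of the 11 higher genes 4 entered only through the morula column. Plakoglobin (Jup) had 6.75 FPKM in morulae and 0.761 FPKM in 8-cell embryos, and the desmosomal plakophilin gene Pkp2 7.95 FPKM in morulae and 1.89 FPKM in 8-cell embryos. Krt8 varied widely among the morula columns, with 182 FPKM in control female and 479 FPKM in control male morulae, 29.2 FPKM in stage-table morulae and 2.26 FPKM in 8-cell embryos. Its partner Krt18 had 367 FPKM in control female and 606 FPKM in control male morulae, 59.8 FPKM in stage-table morulae and 11.9 FPKM in 8-cell embryos. Both keratins were lowest in 8-cell embryos, and among morulae lowest in the stage table. Tight junction genes split. The claudin genes Cldn7 and Cldn4 were higher, with 176 and 203 FPKM in morulae, against 25.7 and 72.6 FPKM in 8-cell embryos. Occludin (Ocln, 17.1 FPKM in morulae and 14.8 FPKM in 8-cell embryos) and the junction adhesion gene F11r (85.9 FPKM in morulae, 78.9 FPKM in 8-cell embryos) stayed within 2-fold. Of the apical polarity genes, Pard6b was higher, with 8.9 FPKM in morulae and 2.58 FPKM in 8-cell embryos. The atypical kinase C genes Prkci and Prkcz had 5.15 and 12.5 FPKM in morulae, against 2.98 and 6.92 FPKM in 8-cell embryos, within 2-fold, and Crb3, of the Crumbs complex, had 57.5 FPKM in morulae and 56.7 FPKM in 8-cell embryos.

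For actin and cortex genes, 9 of 24 genes in the set (37.5%, near the 31.3% of all genes) were higher by at least 2-fold and 0 were lower, with a median of 0.65 (0.83 after centring on GC and length). Actg1, cytoplasmic gamma-actin, had 1083 FPKM in morulae, against 95.7 FPKM in 8-cell embryos (3.49), with 740.3 FPKM in control female and 860.2 FPKM in control male morulae. The crosslinker genes Actn4 and Actn1 had 133 and 11.1 FPKM in morulae, against 13.2 and 2.1 FPKM in 8-cell embryos. Subunits of the Arp2/3 nucleator differed: Arpc1b and Arpc3 had 63.3 and 20.8 FPKM in morulae, against 8.17 and 4.24 FPKM in 8-cell embryos, while Arpc2 and Arpc5 had 123 and 56.1 FPKM in morulae, against 114 and 54 FPKM in 8-cell embryos. The myosin light chain genes Myl6 and Myl12a, with 535 and 81.7 FPKM in morulae, against 533 and 80.1 FPKM in 8-cell embryos, were level. Of the matrix and adhesion genes, 5 were in the set and 4 were at least 2-fold higher, with a median of 1.96 (1.50 after centring on GC and length). Of these 4, Nid1, Dag1 and Itga5 entered only through the morula column. Nidogen (Nid1), a basement membrane protein gene, had 28.1 FPKM in morulae and 3.33 FPKM in 8-cell embryos, and dystroglycan (Dag1), a laminin receptor gene, 7.13 FPKM in morulae and 0.819 FPKM in 8-cell embryos. The integrin genes Itgb1 and Itga5 had 32.7 and 5.59 FPKM in morulae, against 7.75 and 0.696 FPKM in 8-cell embryos, and Itgb5, the one not past 2-fold, had 8.6 FPKM in morulae and 9.31 FPKM in 8-cell embryos. Genes of fluid transport were not uniform, with 1 of 6 at least 2-fold higher and 2 lower. The water and glycerol channel gene Aqp3 had 231 FPKM in morulae, against 42.5 FPKM in 8-cell embryos (2.41). Aqp11, an intracellular aquaporin gene, had 1.68 FPKM in morulae, against 13.5 FPKM in 8-cell embryos (-2.44), and the ion cotransporter gene Slc12a2 9.82 FPKM in morulae and 24.7 FPKM in 8-cell embryos. The sodium pump subunit gene Atp1b3 stayed within 2-fold, with 79.98 FPKM in morulae and 82.7 FPKM in 8-cell embryos.

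**Figure D3:**
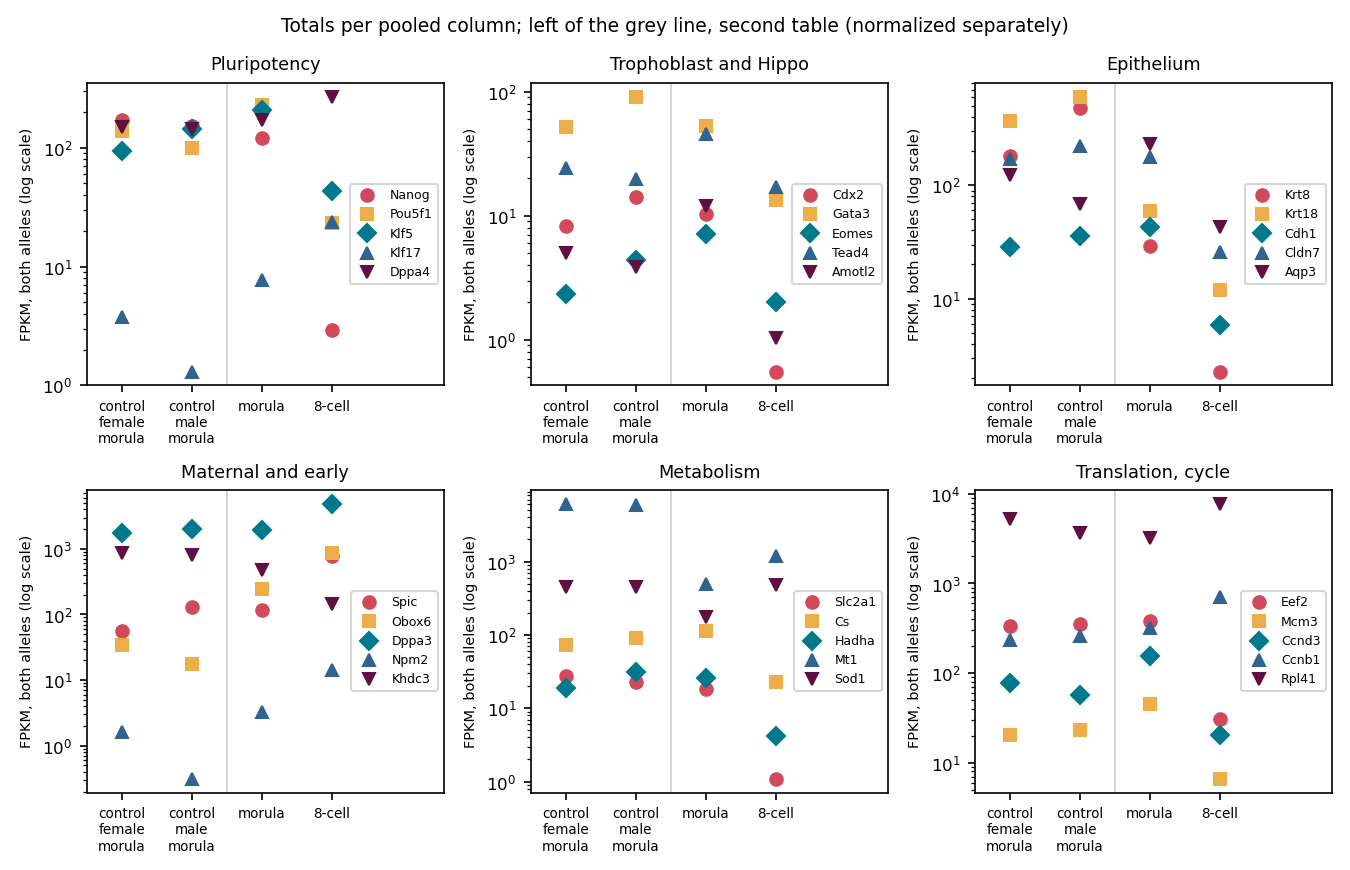
Total FPKM of selected genes (log scale) in the pooled columns of control female morulae, control male morulae, stage-table morulae and 8-cell embryos, 1 point per gene and column; the first 2 columns come from a separately normalized table. Nanog, Cdx2, Krt8, Cdh1 and Slc2a1 are lowest in the 8-cell column, whereas Obox6, Npm2 and Dppa3 are highest there and the 8-cell value of Mt1 lies between those of the control and the stage-table morulae.

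Most genes of the signalling pathways and of primitive endoderm were below the level limit at both stages. Of 20 primitive endoderm genes, 16 were below 5 FPKM, Sox17 and Pdgfra among them. The factor gene Gata6 was present at both stages, with 19.2 FPKM in morulae and 14.9 FPKM in 8-cell embryos. Dab2, an endocytic adaptor gene, had 74.8 FPKM in morulae and 34.1 FPKM in 8-cell embryos. Lrp2, the receptor megalin, had 11.4 FPKM in morulae and 0.9 FPKM in 8-cell embryos. Dab2 and Lrp2 were the genes past 2-fold, and Lrp2 entered only through the morula column. In the Fgf signalling list, 6 of 18 genes were in the set. The receptor genes Fgfr1 and Fgfr2 had 8.14 and 9.07 FPKM in morulae, against 4.36 and 6.19 FPKM in 8-cell embryos, and the ligand gene Fgf4 was below 5 FPKM (2.48 FPKM in morulae, 2.23 FPKM in 8-cell embryos). Downstream, the target gene Etv5 had 6.44 FPKM in morulae and 2.59 FPKM in 8-cell embryos. The receptors were thus within 2-fold. The target was just past it (1.05) but entered only through the morula column, so its direction was favoured by the level limit. Of 34 Wnt, Bmp and Nodal genes, 5 were in the set. The ligand gene Wnt7b was higher, with 5.7 FPKM in morulae and 0.212 FPKM in 8-cell embryos, and also entered only through the morula column. The transducer genes Smad2 and Smad4 had 5.13 and 2.22 FPKM in morulae, against 5.48 and 5.24 FPKM in 8-cell embryos. The Bmp target genes Id1 and Id3 had 5.28 and 285 FPKM in morulae, against 2.69 and 346 FPKM in 8-cell embryos, all within 2-fold.

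Oocyte and maternal-effect genes had the lowest median of the lists with at least 5 genes in the set (-0.96, -0.44 after centring on GC and length). Of 38 genes listed, 8 were in the set, 4 of them at least 2-fold lower (against 6.13% of all genes) and 1 higher, and 29 were below 5 FPKM at both stages. Omt2b, a gene known from oocytes, had 1.54 FPKM in morulae and 22.3 FPKM in 8-cell embryos, wholly maternal at both stages. Its paralogue Omt2a had 9.67 FPKM in 8-cell embryos and was listed at 0 in morulae, and reads of the pair can be shared. Npm2, the oocyte nucleoplasmin gene, had 3.28 FPKM in morulae, against 14.4 FPKM in 8-cell embryos (-1.85), with a paternal share of 7.45% in 8-cell embryos. Both entered only through the 8-cell column, and their FPKM was nearly all maternal there. Over the 6 genes at 5 FPKM or more in both stages, 2 were lower and 1 higher, with a median of -0.21. That was no longer the lowest, since histone genes had -0.40 under the same limit. The ratios of the 8 genes ranged widely, between -3.20 and 1.73. Dppa3, which protects the maternal genome from demethylation, had 1920.3 FPKM in morulae, against 4818 FPKM in 8-cell embryos (-1.33), with paternal shares of 38.6% in morulae and 30.8% in 8-cell embryos. Spin1, which encodes a histone reader, had 12.8 FPKM in morulae and 42.4 FPKM in 8-cell embryos, with a paternal share of 60.8% in 8-cell embryos. Zp3, a zona pellucida gene, had 30.9 FPKM in morulae and 47.2 FPKM in 8-cell embryos, within 2-fold. Khdc3, of the subcortical maternal complex, was the higher gene, with 483 FPKM in morulae, against 145 FPKM in 8-cell embryos (1.73), 877 FPKM in control female and 811 FPKM in control male morulae, and a paternal share of 47.6% in 8-cell embryos. Its complex partner Ooep had 6.06 FPKM in morulae and 5.27 FPKM in 8-cell embryos, and the maternal-effect gene Padi6 10.1 FPKM in morulae and 5.46 FPKM in 8-cell embryos. Against 8-cell embryos, the list median was -1.70 with control female and -1.74 with control male morulae.

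Genes of early genome activation differed from one another. Obox6, the one gene of its homeobox family at 5 FPKM or more, had 247 FPKM in morulae, against 854 FPKM in 8-cell embryos (-1.79). Its maternal and paternal alleles had 115 and 131 FPKM in morulae, against 490.2 and 364 FPKM in 8-cell embryos. It was lower again in the other morula columns, at 34.3 FPKM in control female and 17.4 FPKM in control male morulae. Pramel6 and Pramel7, of the Prame family, had 469 and 456 FPKM in morulae, against 266 and 281 FPKM in 8-cell embryos, within 2-fold, and reads of the pair can be shared. Tdpoz4 and Tdpoz2 had 0.113 and 16.2 FPKM in morulae, against 5.01 and 6.1 FPKM in 8-cell embryos, and as near-identical copies their split is uncertain. Of 29 genes of this list, 24 were below 5 FPKM at both stages. In the CCR4-NOT and messenger decay list, 5 of 15 genes in the set (33.3%) were higher by at least 2-fold and 1 was lower, with a median of 0.20 (0.26 after centring on GC and length). The deadenylase scaffold gene Cnot1 had 18.2 FPKM in morulae and 21 FPKM in 8-cell embryos, and the catalytic subunit gene Cnot8 71.4 FPKM in morulae and 93 FPKM in 8-cell embryos, both within 2-fold. Cnot10 and Cnot3, regulatory subunit genes, were higher, with 23.5 and 16.5 FPKM in morulae, against 6.21 and 5.59 FPKM in 8-cell embryos. The subunit genes Pan2 and Pan3 of a second poly(A) nuclease went in opposite directions, with 8.01 and 8.63 FPKM in morulae, against 1.72 and 23.4 FPKM in 8-cell embryos.

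Genes lower in morulae were mostly listed with FPKM from both alleles in 8-cell embryos. Oocytes hold maternal RNA only, so paternal FPKM marks transcripts that were not inherited from the oocyte. The median paternal share of the 336 lower genes in the 8-cell column was 44.9% (interval over genes 42.6 to 47.3), against 48.2% for the 1717 higher genes and 47.2% for all 5484 genes. A paternal share of 20% or less was seen in 39 of the lower genes (11.6%), 146 of the higher genes (8.5%) and 384 of all genes (7%). Shares between 20% and 80% held for 264 of the lower genes (78.6%) and 88.3% of all genes. Among the lower genes, the vitamin D binding protein gene Gc, the deiodinase gene Dio1 and Calm5 had a share of 0%. Fabp4 and Sox21, a factor gene with a role in cleavage-stage embryos, had 100%. A share of 0% or 100% can also come from reads that do not tell the alleles apart, and with the cross made in 1 direction strain and parent cannot be told apart. The sum of the alleles chose the classes, which largely fixes the sign in each allele. In 1691 of the 1717 higher genes both alleles were above 0 on the log2 scale, with medians of 1.43 for the maternal and 1.42 for the paternal allele. In 304 of the 336 lower genes both were below 0, with medians of -1.27 for the maternal and -1.29 for the paternal allele. Over all 5484 genes both alleles were above 0 in 3234 and below 0 in 1257. Both alleles were past 2-fold in 1118 of the 1717 higher genes and in 150 of the 336 lower genes. The alleles come from the same libraries and are no replicates.

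**Figure D4:**
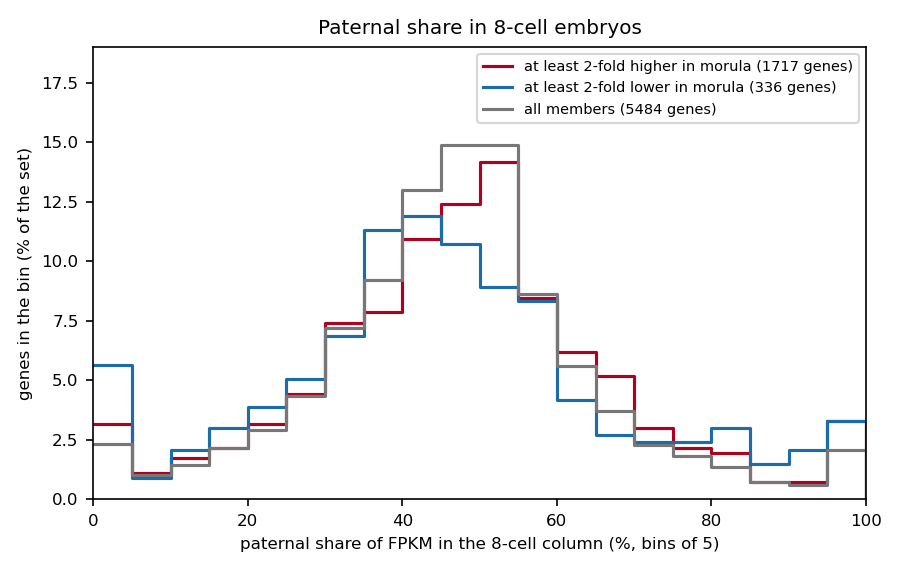
Distribution of the paternal share of FPKM in the 8-cell column (horizontal, percent, bins of 5) for genes at least 2-fold higher in morulae, genes at least 2-fold lower and all 5484 genes (vertical, percent of each set). The 3 distributions have medians between 44.9% and 48.2%, with small ends at 0% and 100%.

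Ribosomal protein genes stood below the offset. The cytosolic ones had a median log2 ratio of 0.21 over 66 genes, with 4 at least 2-fold higher and 1 lower. Their transcripts are short (median 910.00 bases), and after centring on GC and length the median was 0.79, above the offset of 0.49. The list took 14.8% of the summed FPKM in morulae and 16.1% in 8-cell embryos. Rpl41, the most abundant gene of the 8-cell column, was the lower one, with 3188 FPKM in morulae, against 7700.4 FPKM in 8-cell embryos, and 5212 FPKM in control female and 3647 FPKM in control male morulae. Rps2 and Rpl3 were higher, with 882 and 1270.3 FPKM in morulae, against 374 and 596 FPKM in 8-cell embryos. Processed copies of such genes are common and can share their reads. Mitochondrial ribosomal protein genes had a median of -0.26 (0.14 after centring on GC and length) over 69 genes, 4 higher and 5 lower. Mrpl22 had 384 FPKM in morulae and 772 FPKM in 8-cell embryos, and Mrpl10 66.6 FPKM in morulae and 25 FPKM in 8-cell embryos. Ribosome assembly genes stood near the offset: 15 of 50 genes in the set (30.00%) were higher by at least 2-fold and 0 were lower, with a median of 0.47 (0.42 after centring on GC and length). Nol6, a factor of small-subunit assembly, had 37.8 FPKM in morulae, against 2.72 FPKM in 8-cell embryos (3.38), and fibrillarin (Fbl), which methylates ribosomal RNA, 93.4 FPKM in morulae and 29 FPKM in 8-cell embryos. The RNA polymerase I subunit genes Polr1a and Polr1b had 17.7 and 51.6 FPKM in morulae, against 4.79 and 14.4 FPKM in 8-cell embryos, but Polr1b was level with 8-cell embryos in control female morulae (14.1 FPKM). At the other end of the list, Dcaf13, a small-subunit assembly factor, had 170.2 FPKM in morulae and 333 FPKM in 8-cell embryos.

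Of 44 translation factor genes, 13 were higher by at least 2-fold and 0 lower, with a median of 0.43 (0.60 after centring on GC and length). Eif5a, which helps the ribosome past proline runs, had 2015 FPKM in morulae and 426 FPKM in 8-cell embryos. The helicase cofactor genes Eif4h and Eif4b had 282 and 83.3 FPKM in morulae, against 41.3 and 20.6 FPKM in 8-cell embryos. The initiation factor genes Eif5b and Eif2s1 had lower values within 2-fold, 19.1 and 145 FPKM in morulae, against 39 and 238 FPKM in 8-cell embryos. Of the aminoacyl-tRNA synthetase genes, 14 of 29 genes in the set (48.3%, against 31.3% of all genes) were higher by at least 2-fold and 0 were lower, with a median of 0.98 (0.73 after centring on GC and length). Mars, which charges methionine, had 81.6 FPKM in morulae and 20.05 FPKM in 8-cell embryos, and Aars, which charges alanine, 28.9 FPKM in morulae and 6.93 FPKM in 8-cell embryos. Qars, which charges glutamine, had 98.9 FPKM in morulae and 27.9 FPKM in 8-cell embryos, while Kars, which charges lysine, was level at 134 FPKM in morulae and 134 FPKM in 8-cell embryos. Against 8-cell embryos, the medians with control female morulae were 0.36 for translation factors and 0.31 for synthetases. That of all genes that passed the level limit with control female morulae, a different set, was 0.21.

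Genes of glucose use were mostly higher. Of 13 glucose uptake and glycolysis genes in the set, 10 were at least 2-fold higher (76.9%, against 31.3% of all genes) and 0 lower, with a median of 1.79 (1.06 after centring on GC and length). Of these 10 higher genes, 7 were below 5 FPKM in 8-cell embryos and entered only through the morula column, Slc2a1, Slc2a3, Pfkl, Hk1 and Slc16a1 among them. Over the 5 genes at 5 FPKM or more in both stages, 3 were higher. Slc2a1, the glucose transporter Glut1, had 18.4 FPKM in morulae, against 1.08 FPKM in 8-cell embryos (3.22), with 27.7 FPKM in control female and 23.1 FPKM in control male morulae. Slc2a3, the transporter Glut3, had 19.1 FPKM in morulae and 2.98 FPKM in 8-cell embryos. Uptake genes were thus past 2-fold in the stage table, and so were several enzymes. The liver-type phosphofructokinase gene Pfkl had 14.5 FPKM in morulae and 1.8 FPKM in 8-cell embryos, and phosphoglycerate mutase (Pgam1) 249 FPKM in morulae and 71.2 FPKM in 8-cell embryos. Pyruvate kinase (Pkm) had 24.6 FPKM in morulae and 5.69 FPKM in 8-cell embryos, and hexokinase 1 (Hk1) 13 FPKM in morulae and 4.5 FPKM in 8-cell embryos. Hk1 was lower than in 8-cell embryos in the other morula columns, at 2.65 FPKM in control female and 1.02 FPKM in control male morulae. The monocarboxylate carrier gene Slc16a1 had 10.8 FPKM in morulae and 2.3 FPKM in 8-cell embryos. Not all steps followed. Hexokinase 2 (Hk2) had 5.09 FPKM in morulae and 11 FPKM in 8-cell embryos, just within 2-fold on log2(FPKM + 1), and phosphoglycerate kinase (Pgk1) was level at 8.55 FPKM in morulae and 8.61 FPKM in 8-cell embryos. Gapdh was below 5 FPKM in these allelic columns, with 1.04 FPKM in morulae and a listed 0 in 8-cell embryos. Against 8-cell embryos, the list median was 1.26 with control female and 1.59 with control male morulae.

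Of the tricarboxylic acid cycle genes, 8 of 19 genes in the set (42.1%) were higher by at least 2-fold and 0 were lower, with a median of 0.75 (0.75 after centring on GC and length). Citrate synthase (Cs) had 112 FPKM in morulae, against 23 FPKM in 8-cell embryos (2.23). Dlst, a subunit gene of the ketoglutarate dehydrogenase, had 19.5 FPKM in morulae and 2.33 FPKM in 8-cell embryos. The later enzyme malate dehydrogenase (Mdh2) had 384 FPKM in morulae and 421 FPKM in 8-cell embryos, within 2-fold. Oxidative phosphorylation genes (subunits, cytochrome c and complex I assembly factors) behaved differently. Their median was -0.39 (0.20 after centring on GC and length) over 67 genes, 9 higher and 2 lower. Their transcripts are short (median 1001 bases). Against 8-cell embryos the median was 0.31 with control female morulae, so its sign depended on the morula column and on the centring. Sdha, the catalytic subunit of complex II, had 53.5 FPKM in morulae and 13.2 FPKM in 8-cell embryos, and Atp5b, of the ATP synthase, 989 FPKM in morulae and 340.2 FPKM in 8-cell embryos. Ndufa12, of complex I, had 195 FPKM in morulae and 416 FPKM in 8-cell embryos, with 289 FPKM in control female and 224 FPKM in control male morulae. The other lower gene, the assembly factor gene Ndufaf5, had 3.42 FPKM in morulae and 7.87 FPKM in 8-cell embryos. Ndufaf5 entered only through the 8-cell column.

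In fatty acid metabolism, 14 of 23 genes in the set (60.9%, against 31.3% of all genes) were higher by at least 2-fold and 0 were lower, with a median of 1.15 (1.10 after centring on GC and length). Of these 14, 6 entered only through the morula column. Cpt1a, which admits fatty acids to mitochondria, had 19.4 FPKM in morulae, against 2.82 FPKM in 8-cell embryos (2.41), and Hadha, of beta-oxidation, 26.2 FPKM in morulae and 4.18 FPKM in 8-cell embryos. Synthesis genes were higher too: ATP citrate lyase (Acly) had 28.1 FPKM in morulae and 7.81 FPKM in 8-cell embryos and the desaturase gene Scd2 10.5 FPKM in morulae and 1.3 FPKM in 8-cell embryos. Genes of both breakdown and synthesis were therefore among the higher ones. Acsl4, which activates long fatty acids, and Acadm, of beta-oxidation, had lower values within 2-fold, 54.5 and 112 FPKM in morulae, against 98.1 and 156 FPKM in 8-cell embryos. Of the 11 sterol synthesis genes in the set 4 were at least 2-fold higher, among them Dhcr7, of the last step to cholesterol, with 14.2 FPKM in morulae and 2.23 FPKM in 8-cell embryos. Squalene epoxidase (Sqle) was level at 9.14 FPKM in morulae and 10.2 FPKM in 8-cell embryos. Of the nucleotide and one-carbon genes, 9 of 25 genes in the set (36%) were higher by at least 2-fold and 0 were lower. Impdh1, of guanine nucleotide synthesis, had 102 FPKM in morulae and 22.1 FPKM in 8-cell embryos, and the folate enzyme gene Mthfd1 56.4 FPKM in morulae and 14.5 FPKM in 8-cell embryos. Of 43 amino acid transporter genes, 5 were in the set and 4 were higher, 2 of which entered only through the morula column. Slc38a4, an imprinted neutral amino acid carrier gene, had 15.2 FPKM in morulae and 2.73 FPKM in 8-cell embryos, wholly paternal at both stages. Slc1a1, a glutamate carrier gene, had 84.1 FPKM in morulae and 19.4 FPKM in 8-cell embryos, and Slc38a7, a lysosomal glutamine carrier gene, 10.1 FPKM in morulae and 1.67 FPKM in 8-cell embryos. Slc7a6, of a cationic exchanger, had 33.1 FPKM in morulae and 15.9 FPKM in 8-cell embryos, and its heavy chain Slc3a2, within 2-fold, 84.6 FPKM in morulae and 53.5 FPKM in 8-cell embryos.

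Of 22 redox genes, 5 were higher by at least 2-fold and 4 lower, and the lower ones depended on the morula column. The metallothionein genes Mt1 and Mt2, which bind zinc, had 488 and 364 FPKM in morulae, against 1199 and 884 FPKM in 8-cell embryos. In control female and control male morulae, however, Mt1 was the most abundant gene of the column (6085 and 5982 FPKM). Superoxide dismutase 1 (Sod1) and peroxiredoxin 1 (Prdx1) had 175 and 189 FPKM in morulae, against 476 and 415 FPKM in 8-cell embryos, and 445 and 409.6 FPKM in control female morulae. None of these 4 genes was at least 2-fold lower in control female morulae than in 8-cell embryos. The glutathione synthetase gene Gss was higher, with 27.7 FPKM in morulae and 5.96 FPKM in 8-cell embryos, and thioredoxin reductase (Txnrd1) 9.58 FPKM in morulae and 2.4 FPKM in 8-cell embryos. Txnrd1 was among 4 of the 5 higher genes that entered only through the morula column, so the level limit favoured their direction. Over the 18 redox genes at 5 FPKM or more in both stages, 1 was higher and 4 were lower. Of the cathepsin and vacuolar ATPase genes, 6 of 21 genes in the set (28.6%) were higher by at least 2-fold and 0 were lower, with a median of 0.10 (0.58 after centring on GC and length). Cathepsin D (Ctsd), a lysosomal protease gene, had 361 FPKM in morulae, against 54 FPKM in 8-cell embryos (2.72).

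Of the chaperone genes, 22 of 49 genes in the set (44.9%) were higher by at least 2-fold and 2 were lower, with a median of 0.90 (0.73 after centring on GC and length). Hspa8 (Hsc70), the most abundant gene of the morula column, had 5794 FPKM in morulae, against 2530.1 FPKM in 8-cell embryos, and 2931 FPKM in control female and 1637 FPKM in control male morulae. The control male value was thus below that of 8-cell embryos. The Hsp90 genes Hsp90ab1 and Hsp90aa1 had 2553 and 2486 FPKM in morulae, against 975 and 1002 FPKM in 8-cell embryos. Hspd1, the mitochondrial chaperonin, had 248 FPKM in morulae and 58.4 FPKM in 8-cell embryos, and Hsph1, an Hsp110 gene, 113 FPKM in morulae and 17.6 FPKM in 8-cell embryos. The co-chaperone genes Dnajb14 and Dnajc21 were the lower ones, with 4.13 and 23.6 FPKM in morulae, against 17.6 and 77.8 FPKM in 8-cell embryos. Against 8-cell embryos the list median with control female morulae was 0.21. The genes that passed the level limit with control female morulae, a different set, also had a median of 0.21. Proteasome subunit genes were nearer to level: 3 of 32 genes in the set (9.38%) were higher by at least 2-fold and 0 were lower, with a median of 0.09 (0.49 after centring on GC and length). The higher ones, Psmd3, Psmd2 and Psmd1, all belong to the regulatory particle and had 216, 167 and 128 FPKM in morulae, against 24.5, 53.3 and 55.3 FPKM in 8-cell embryos. The other genes of both parts were within 2-fold, on either side of 0. Psmd14, also of the regulatory particle, had 220 FPKM in morulae and 314 FPKM in 8-cell embryos. In the core, Psma7 had 604 FPKM in morulae and 968 FPKM in 8-cell embryos, and Psmb5 477 FPKM in morulae and 320 FPKM in 8-cell embryos. Among secretory translocation and coat genes, 8 of 32 genes in the set (25%) were higher by at least 2-fold and 0 were lower. Sec61a1, of the translocon, had 58.6 FPKM in morulae and 17.7 FPKM in 8-cell embryos, and Copa, of the COPI coat, 22.9 FPKM in morulae and 5.71 FPKM in 8-cell embryos.

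Splicing, polymerase and nucleoporin genes had medians below the offset as deposited. Of the splicing factor genes, 9 of 40 genes in the set (22.5%) were higher by at least 2-fold and 3 were lower, with a median of 0.30 (0.55 after centring on GC and length). Sf3a2 and Sf3b3, of the U2 particle, had 24.2 and 53.2 FPKM in morulae, against 3.1 and 16.7 FPKM in 8-cell embryos, and Snrpa1, of the same particle, had 144 FPKM in morulae and 304 FPKM in 8-cell embryos. Sf3b3 had 14.4 FPKM in control female and 15 FPKM in control male morulae, slightly below the 8-cell level. Members of 1 particle thus lay on both sides. Of the RNA polymerase II, Mediator and general factor genes, 15 of 55 genes in the set (27.3%) were higher by at least 2-fold and 7 were lower. Within Mediator, Med25 had 50.4 FPKM in morulae, against 3.58 FPKM in 8-cell embryos (3.49), and Med16 7.3 FPKM in morulae and 0.995 FPKM in 8-cell embryos. Med29 and Med31 were lower, with 41.9 and 59.5 FPKM in morulae, against 112 and 135 FPKM in 8-cell embryos. The small polymerase subunit genes Polr2k and Polr2l had 158 and 111 FPKM in morulae, against 368 and 258 FPKM in 8-cell embryos. Med25 and Med16 were among 7 of the 15 higher genes that entered only through the morula column, so the level limit favoured their direction. Over the 47 genes of the list at 5 FPKM or more in both stages, 8 were higher and 7 lower, with a median of -0.25. Mediator and polymerase subunits therefore did not share a direction. Of the nucleoporin genes, 3 of 17 genes in the set (17.6%) were higher by at least 2-fold and 0 were lower. Nup62, of the central channel, had 28.5 FPKM in morulae and 5.18 FPKM in 8-cell embryos. Of 135 noncoding RNAs and small RNA host genes, 14 were in the set, 3 higher and 3 lower. Malat1, a nuclear RNA, had 132 FPKM in morulae and 58.5 FPKM in 8-cell embryos, and Terc, the telomerase RNA, 2.51 FPKM in morulae and 7.94 FPKM in 8-cell embryos.

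Of the replication genes, 12 of 34 genes in the set (35.3%, near the 31.3% of all genes) were higher by at least 2-fold and 1 was lower, with a median of 0.58 (0.61 after centring on GC and length). The MCM helicase genes Mcm3 and Mcm5 had 45.2 and 72.6 FPKM in morulae, against 6.59 and 16.7 FPKM in 8-cell embryos, and the single-strand binding gene Rpa1 25.2 FPKM in morulae and 4.09 FPKM in 8-cell embryos. Geminin (Gmnn), an inhibitor of origin licensing, was the lower gene, with 194 FPKM in morulae, against 405 FPKM in 8-cell embryos (-1.06). Of the cyclin, kinase and mitosis genes, 7 of 34 genes in the set (20.6%) were higher by at least 2-fold and 3 were lower, and cyclins lay on both sides. Ccnd3, a G1 cyclin gene, had 156 FPKM in morulae, against 20.6 FPKM in 8-cell embryos (2.86), and its partner Cdk4 217 FPKM in morulae and 77 FPKM in 8-cell embryos. The mitotic cyclin genes Ccnb1 and Ccnb2 had 317 and 51 FPKM in morulae, against 715 and 115 FPKM in 8-cell embryos. The other morula columns had the same order: Ccnd3 had 76.6 FPKM in control female and 57.5 FPKM in control male morulae, and Ccnb1 237 FPKM in control female and 259 FPKM in control male morulae. Aurkc, an aurora kinase gene of germ cells and early embryos, had 12.8 FPKM in morulae, against 52.5 FPKM in 8-cell embryos (-1.95). Cdc25b, a phosphatase gene of mitotic entry, had 8.09 FPKM in morulae and 0.932 FPKM in 8-cell embryos, and 1.01 FPKM in control female and 0.698 FPKM in control male morulae. Of the centriole and centrosome genes, 1 of 10 genes in the set (10%) was higher by at least 2-fold and 0 were lower, and 13 were below 5 FPKM. The duplication kinase gene Plk4 was within 2-fold, with 10.6 FPKM in morulae and 5.05 FPKM in 8-cell embryos. Among p53 and apoptosis genes, 7 of 18 genes in the set (38.9%) were higher by at least 2-fold and 1 was lower, with a median of 0.73 (0.88 after centring on GC and length). Trp53 itself had 113 FPKM in morulae, against 27.6 FPKM in 8-cell embryos (2.00), with 85.4 FPKM in control female and 59.9 FPKM in control male morulae. The survival gene Bcl2l1 had 16.2 FPKM in morulae and 2.97 FPKM in 8-cell embryos. Targets of p53 differed: Perp had 61 FPKM in morulae and 17 FPKM in 8-cell embryos, Cdkn1a (p21) 13.5 FPKM in morulae and 21 FPKM in 8-cell embryos, and Trp53inp1 3.31 FPKM in morulae and 17.1 FPKM in 8-cell embryos. Trp53inp1 was not lower in control female morulae (19.8 FPKM).

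Chromatin lists had medians near or below the offset, apart from remodellers (0.65), DNA methylation regulators (0.54) and Polycomb genes (0.54), slightly above it. Of 6 DNA methylation regulators in the set, the methyltransferase gene Dnmt3b was higher, with 15 FPKM in morulae and 4.14 FPKM in 8-cell embryos, and the remodeller gene Hells lower, with 14 FPKM in morulae and 34.2 FPKM in 8-cell embryos. Dnmt3b entered only through the morula column, so its direction was favoured by the level limit. Dnmt1, which maintains methylation, was below 5 FPKM at both stages (4.32 FPKM in morulae, 1.53 FPKM in 8-cell embryos). Of the Polycomb genes, 3 of 16 genes in the set (18.8%) were higher by at least 2-fold and 0 were lower. The PRC2 core genes Ezh2, Eed and Suz12 were within 2-fold, with 39.8, 66 and 21.3 FPKM in morulae, against 23, 108 and 25 FPKM in 8-cell embryos. The higher ones belong to PRC1 forms: Cbx7 and Kdm2b had 10.1 and 33.7 FPKM in morulae, against 1.48 and 11.7 FPKM in 8-cell embryos, and Pcgf3 12.5 FPKM in morulae and 4.67 FPKM in 8-cell embryos. Cbx7 and Pcgf3 entered only through the morula column. In the other morula columns Kdm2b had 18.4 FPKM in control female and 9.89 FPKM in control male morulae and Pcgf3 had 3.01 FPKM in control female and 6.09 FPKM in control male morulae, so the higher level of both depended on the morula column. Of the histone methyltransferase and demethylase genes, 2 of 17 genes in the set (11.8%) were higher by at least 2-fold and 0 were lower. Those were Prmt5, an arginine methyltransferase gene, with 168 FPKM in morulae and 55 FPKM in 8-cell embryos, and Kdm3a, an H3K9 demethylase gene, with 10.6 FPKM in morulae and 4.02 FPKM in 8-cell embryos. Kdm3a entered only through the morula column. Of the remodeller, deacetylase and acetyltransferase genes, 7 of 22 genes in the set (31.8%) were higher by at least 2-fold and 1 was lower. Hdac1 had 433 FPKM in morulae, against 143 FPKM in 8-cell embryos (1.59), but 133 FPKM in control female and 86.6 FPKM in control male morulae, and its close relative Hdac2 52.8 FPKM in morulae and 55.7 FPKM in 8-cell embryos. Sirt1, another deacetylase gene, was the lower one, with 3.61 FPKM in morulae and 8.63 FPKM in 8-cell embryos. Sirt1 entered only through the 8-cell column, and 4 of the 7 higher genes only through the morula column. The list of histone and histone chaperone genes had more lower than higher members, 6 and 3 of 25. Its median was -0.38 (0.12 after centring on GC and length). The lower ones were histone genes, and of the higher ones Chaf1a and Nap1l4 encode chaperones and Hist2h3b a histone. Chaf1a and Hist2h3b entered only through the morula column. The replacement histone genes H3f3b and H3f3a, which encode the same protein, had 479 and 896 FPKM in morulae, against 1248 and 597 FPKM in 8-cell embryos. Transcripts of replication-dependent histones lack a poly(A) tail, and oligo-dT capture measures them poorly. Among cohesin and Ctcf genes, 2 of 11 genes in the set (18.2%) were higher by at least 2-fold and 0 were lower. Both higher genes, Stag1 among them, entered only through the morula column, so the level limit favoured their direction. Over the 8 genes at 5 FPKM or more in both stages, 0 were higher and 0 lower, with a median of -0.36. The alternative subunit genes Stag1 and Stag2 had 5.92 and 14.8 FPKM in morulae, against 1.65 and 24.3 FPKM in 8-cell embryos. Of 354 Zfp zinc finger genes, 76 were in the set, 16 higher (21.1%, against 31.3% of all genes) and 7 lower (9.21%, against 6.13%). The level limit favoured most of these directions: 11 of the 16 higher genes entered only through the morula column and 6 of the 7 lower genes only through the 8-cell column. Over the 42 genes at 5 FPKM or more in both stages, 5 were higher and 1 lower. The ends of that list were Zfp428 (15.2 FPKM in morulae, 1.98 FPKM in 8-cell embryos) and Zfp644 (0.661 FPKM in morulae, 8.57 FPKM in 8-cell embryos), both of the kind favoured by the limit.

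The sign of the median of several lists, taken against 0, depended on the morula column. The median of all genes also differed: 0.49 with the stage-table morulae, 0.21 with control female and 0.33 with control male morulae. Each is over a different set. Medians of the cyclin, nucleoporin and ribosome assembly lists, given next, were below that of all genes with every column. Against that level these lists therefore kept their side. Of 44 lists with at least 5 genes in the set, 11 had a median of the opposite sign with both control columns and 15 with at least one. The cyclin, kinase and mitosis list had a median of 0.47 with the stage-table morulae, -0.68 with control female and -0.25 with control male morulae. The nucleoporin list had 0.32 with the stage-table morulae, -0.43 with control female and -0.16 with control male morulae. Ribosome assembly genes had 0.47 with the stage-table morulae, -0.31 with control female and -0.47 with control male morulae. The others with both were oxidative phosphorylation, cathepsins and vacuolar ATPase, splicing factors, noncoding RNAs, centriole genes, Polycomb genes, histone methyltransferases and demethylases, and Zfp genes, and those with one were the genome activation, proteasome, replication and remodeller lists. The epithelial list kept its sign, with 1.47 for the stage-table morulae, 1.34 with control female and 1.59 with control male morulae, as did the trophoblast, oocyte and glucose lists above.

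**Figure D5:**
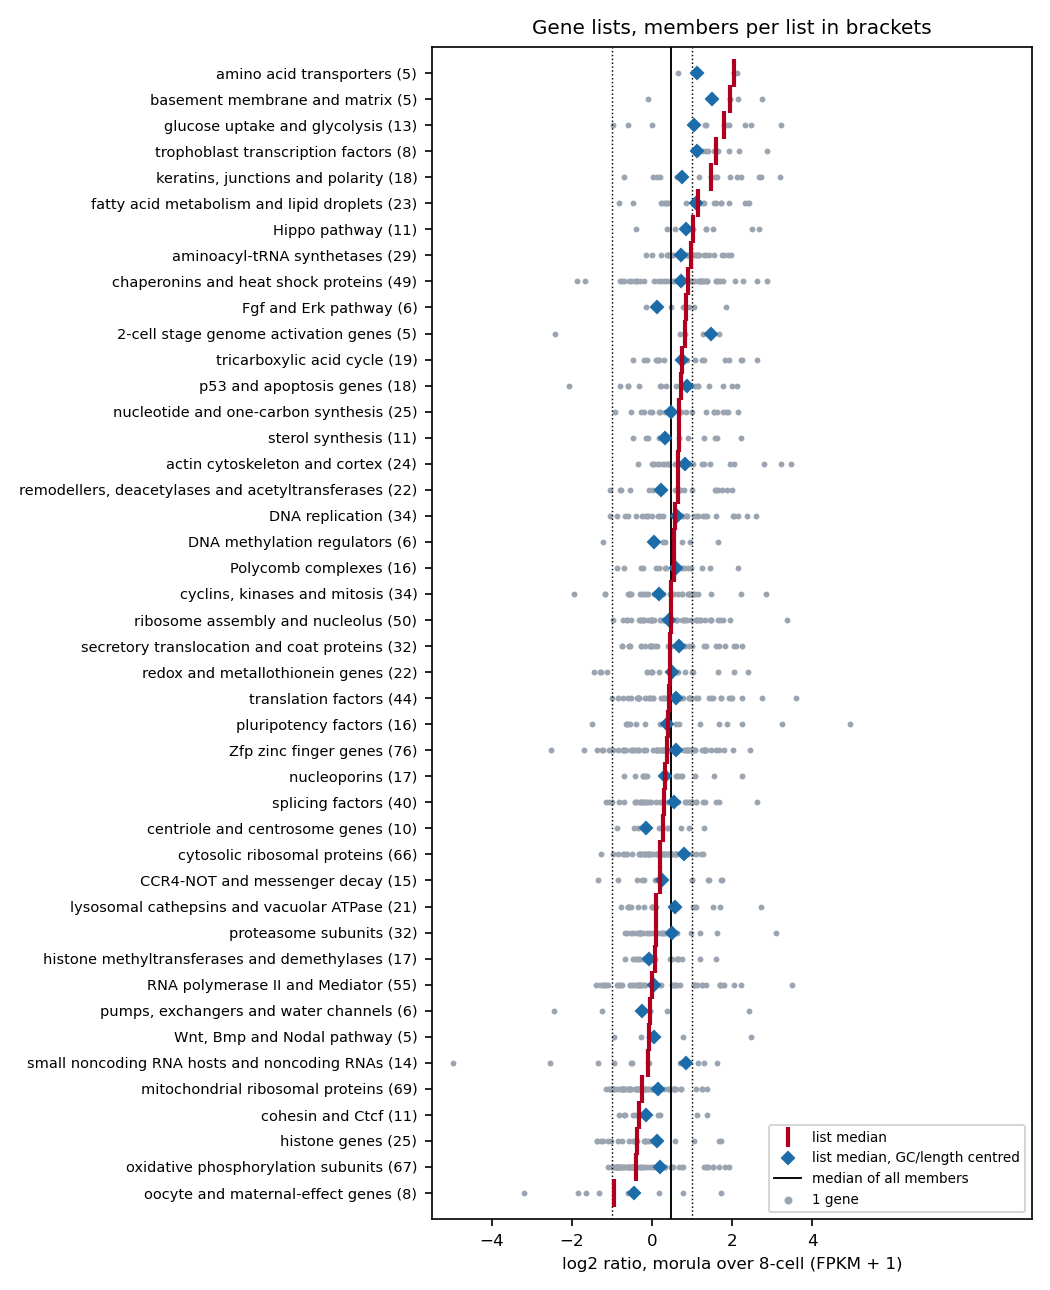
Log2 ratio of morula over 8-cell (FPKM + 1) for each gene of the lists with at least 5 genes in the set; grey points are genes, red bars list medians, blue diamonds list medians after centring on GC and length, the solid line the median of all 5484 genes (0.49) and the dotted lines a 2-fold difference. Amino acid transporters (median 2.05) and matrix genes (1.96) are at the top and oocyte genes (-0.96) at the bottom, and the diamond and the bar of oxidative phosphorylation lie on opposite sides of 0.

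Markers of other cells were below 5 FPKM at both stages, apart from Amhr2 and Lyz2 in morulae and Cd52 in 8-cell embryos. The 13 cumulus and granulosa markers summed to 14.5 FPKM in morulae and 3.64 FPKM in 8-cell embryos, and 7 of them were at 0 in both columns. Amhr2, the receptor gene of anti-Müllerian hormone, made up most of that sum (11.7 FPKM in morulae, 3.59 FPKM in 8-cell embryos). The 13 blood and immune markers summed to 14.5 FPKM in morulae and 5.88 FPKM in 8-cell embryos. Of this, the lysozyme gene Lyz2 had 12.4 FPKM in morulae and was listed at 0 in 8-cell embryos, and Cd52 had 1.14 FPKM in morulae and 5.37 FPKM in 8-cell embryos. All 7 sperm markers were at 0 in both columns, and the 11 decidua and oviduct markers summed to 5.47 FPKM in morulae and 0.375 FPKM in 8-cell embryos. Their part in the results above was not tested.

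The E3.5 columns of the same table, which the choice of genes did not use, gave a later reading of the same genes. Of the 1717 genes higher in morulae, 13.9% were at least 2-fold higher in the inner cell mass than in the trophectoderm and 8.21% at least 2-fold lower, against 11.5% and 6.56% of all 5484 genes. For the 336 lower genes the shares were 10.7% and 10.1%. The higher genes thus held genes of both lineages in shares near those of all genes. Nanog had 157 FPKM in inner cell mass and 30.7 FPKM in trophectoderm, and Tinagl1 had 31 FPKM in inner cell mass and 256 FPKM in trophectoderm. Krt8 had 519.7 FPKM in inner cell mass and 1502 FPKM in trophectoderm, both above its level in morulae. Spic, lower in morulae than in 8-cell embryos, had 108 FPKM in inner cell mass and 0.991 FPKM in trophectoderm. Obox6 had 854 FPKM in 8-cell embryos, 247 FPKM in morulae, 10.8 FPKM in inner cell mass and 1.04 FPKM in trophectoderm, a series of falling values.

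At the level limit, the genes just inside were Csk, with 5.006 FPKM in 8-cell embryos, Hsdl1, with 5.008 FPKM in morulae, and Klf3, with 5.009 FPKM in 8-cell embryos. Just outside were Fcho2 and Acer2, with 4.995 and 4.991 FPKM in morulae, and A830080D01Rik, with 4.997 FPKM in 8-cell embryos. Of the 57 genes left out because of a 0, 8 were at 0 in morulae and 49 in 8-cell embryos. The chromatin protein gene Hmgn2 was listed at 0 in morulae and had 201 FPKM in 8-cell embryos. Its relative Hmgn1 had 234 FPKM in morulae and was listed at 0 in 8-cell embryos. Every cell uses such genes, so a 0 is given as listed and no fold was computed from it.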

How the data were processed

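The authors deposited 1 table of FPKM values per gene for the stages and 1 for control and knockout morulae, with a maternal and a paternal column per group. Per the submitters' processing notes, Trim Galore 0.6.4, HISAT2 2.2.0 and StringTie 2.1.1 were used with mm9; how alleles were assigned is not given in the sources used here. Each column pools its samples (3 morula, 3 8-cell, 3 control female and 4 control male morula samples, and the E3.5 samples given at the start), and the tables were normalized separately. Knockout morulae, post-implantation tissues and another table were not used here.

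Alleles were added, genes at 5 FPKM or more in one stage and above 0 in both were kept, and log2((morula + 1)/(8-cell + 1)) was computed, with 1 (2-fold) as the limit. With pooled columns no test was made; intervals of medians are order-statistic intervals over genes. Rows that name no gene were left out. Transcript GC and length came from GENCODE M21, matched by symbol, and promoters from RefSeq (GRCm38.p6). Near-identical copies can share reads, and the counting used no strand that the labels state. A 0 may be a failed estimate.

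Named genes were the 12 highest and 12 lowest ratios, members of the gene lists (up to 20 per list, or 5 at each end of longer lists), the 5 most abundant per stage, up to 8 listed at 0 in one stage, the 3 nearest to 5 FPKM on each side, and up to 5 with extreme paternal shares in each class. The members, lists and rules were chosen with earlier results of these data known. Alternatives were pseudocounts, level limits, scalings, single alleles, the control morula columns and centring by GC and length. Scripts ran in Python 3.11.15 with pandas 2.3.3, numpy 2.4.6, scipy 1.17.1 and matplotlib 3.10.9, and were tested on simulated data.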

Additional observations from a re-analysis of the deposited data

How the results depend on the processing

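More genes were higher than lower in morulae under every alternative run. The count of higher genes was 949 and that of lower genes 882 after centring on the median, which sets the median at 0. With columns rescaled to equal sums 2152 genes were higher and 651 lower. That common sum was above both listed sums (399289 in morulae and 360907 in 8-cell embryos). The limit of 5 and the added 1 were kept, so both stood for lower listed FPKM values. These counts, and the median of this setting below, therefore mix the scaling with a lower level limit. The effect of equal sums alone was not computed. With 5 FPKM or more required in both stages, chosen after seeing the data, 850 were higher and 199 lower, with a median of 0.27. The count of lower genes was 739 with upper-quartile scaling, 741 with control female and 799 with control male morulae. The median log2 ratio was 0.53 with no pseudocount, 0.42 at 10 FPKM or more, 0.28 with no filter on low values, 0.40 rescaled to equal sums, 0.12 with upper-quartile scaling, 0.41 for the maternal and 0.45 for the paternal allele alone, 0.21 with control female and 0.33 with control male morulae.

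Of the 241 named genes with a ratio, 35 changed the sign of it with control female morulae, 23 of them within 2-fold at first, and 32 did with control male morulae, 20 of them within 2-fold. Among genes past 2-fold, the ratio changed sign with control female morulae for Hand1 -0.91, Hdac1 -0.10, Hk1 -0.59, Klf3 0.30, Mt1 2.34, Mt2 1.27, Pcgf3 -0.50, Polr1b -0.022, Sf3b3 -0.20, Snhg9 0.16, Tbx3 -0.053 and Trp53inp1 0.21. With control male morulae it did so for Cdc25b -0.19, Hand1 -2.05, Hdac1 -0.71, Hk1 -1.45, Hspa8 -0.63, Kdm2b -0.22, Klf3 0.054, Mt1 2.32, Mt2 1.11, Prdx1 0.54, Sf3b3 -0.14 and Tdpoz2 -0.30. Of the genes past 2-fold, signs changed with the maternal allele alone for Fabp4 0.25, Sox21 0.023 and Trp53inp1 0.37, and with the paternal allele alone for Dhcr7 -0.39. The median of the blood and immune markers became 1.08 when genes at 0 in one stage were kept, since Lyz2 then enters. The cause of the other changes was not tested.

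Centring by GC and length class, chosen after seeing the data, left 187 of 241 named genes in their class, put 44 within 2-fold and 10 past it, with 1397 genes higher and 297 lower in all.

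No paired analysis was possible because each column pools its samples, and no replicate was left out for the same reason. Read depth was unknown, and no counting error is given.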
